A study of Arabidopsis thaliana with 12 samples.

Results

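A total of 154 noncoding RNA genes were expressed in leaves of Arabidopsis thaliana, out of 302 genes that the deposited table describes as other RNA and 33726 entries in all. They were chosen by a mean abundance of at least 1 over the 12 libraries, where abundance is 2 to the power of the deposited log2 value minus 1. The mean of all libraries chose them, whatever the genotype, so their level is a description, and the comparisons between genotypes were tested. The other 148 lay below the threshold, and 34 of these were listed at 0 in every library. Just inside it were AT5G24206 and AT4G20362 (mean abundance 1.01 each) and AT5G66558 (1.05), and just outside it AT1G80325 (0.996), AT5G09443 and AT3G13277 (0.981 each). In RefSeq's annotation of TAIR10.1, 97 of the 154 have the biotype lncRNA, 56 ncRNA and 1 antisense RNA.

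Plant long noncoding RNAs are made by RNA polymerase II much as messenger RNAs are, and many carry a cap, introns and a poly(A) tail but no long reading frame. Some act in cis on a neighbouring or opposite gene, some bind microRNAs or splicing factors, some are precursors of small RNAs, and most have no known role. Their steady level depends on transcription and on decay, in which the nuclear exosome, the 5′ to 3′ exonucleases of the XRN family and nonsense-mediated decay take part.

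The leaves were 18 days old and formed 4 groups, with 3 libraries each. One group was wild type of the Columbia ecotype, and the other groups were mutants of that ecotype labelled anac017, anac082 and anac090, in which by the protocol T-DNA interrupts a gene for a NAC transcription factor. The lines came from public insertion collections, and neither the allele nor the place of the insertion was stated in the sources used here. Plants were grown under long days with no treatment named. No label ties the libraries of a group to different plants, so the spread behind each p-value may be a technical one. RNA was selected for poly(A) tails, so noncoding RNAs without one were not captured.

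The markers were those of a leaf. RBCS1A, the Rubisco small subunit, had a mean abundance of 2120 and the other 4 leaf markers lay between 634 and 2480. The floral markers AG, AP3, PI and SEP3 lay between 0.0696 and 0.502, and of the root markers PIN2 was at 0.00231 while COBL9 and EXPA7 were listed at 0. The targeted genes went against 2 of the 3 labels. ANAC017 was at a log2 value of 5.99, 5.88 and 5.79 in wild type and at 6.68, 6.84 and 6.72 in the libraries labelled anac017. ANAC082 was at 4.98, 5 and 5.07 in wild type and at 9.79, 9.75 and 9.94 in the libraries labelled anac082. ANAC090 was at 1.35, 1.52 and 1.75 in wild type and at 1.22, 0.90 and 0.72 in those labelled anac090, a difference of -0.60 ± 0.30 (SE) that did not pass the threshold (adjusted p = 0.192). Every direction below is therefore between libraries as labelled, and "in anac017" stands for "in the libraries labelled anac017". On the first principal component of all tested genes (51.0% of the variance), anac082 replicate 1 lay at -27.0, against 5.7 and 3.6 for its group, and anac090 replicate 3 at 74.1, against 15.9 and -12.7. Calls in anac017 and anac090, in anac017 against the other lines and by the F-test are therefore also counted without these 2 libraries.

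Sequences of the genes that the results turn on are shown first. AT2G45023, AT1G22403 and AT1G69252 had the largest rises in anac017 among the genes past the threshold and overlap no other gene of the table, and AT3G29644 was higher in all 3 lines. The runs below go from 250 bases before to 50 bases after the annotated start of each gene, 5′ to 3′ on the gene's strand, read from the TAIR10.1 genome. Capitals mark matches on either strand to the W-box core TTGAC, bound by WRKY factors, the as-1 core TGACG, bound by TGA factors, and the G-box CACGTG, bound by bZIP and bHLH factors.
AT2G45023, 2:18572124-18572423, minus strand: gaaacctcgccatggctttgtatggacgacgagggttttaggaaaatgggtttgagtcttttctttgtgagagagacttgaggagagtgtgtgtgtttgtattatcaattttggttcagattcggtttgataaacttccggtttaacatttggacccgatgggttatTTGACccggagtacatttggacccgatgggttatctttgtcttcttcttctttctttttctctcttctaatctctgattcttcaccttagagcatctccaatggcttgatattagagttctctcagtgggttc
AT1G22403, 1:7909659-7909958, minus strand: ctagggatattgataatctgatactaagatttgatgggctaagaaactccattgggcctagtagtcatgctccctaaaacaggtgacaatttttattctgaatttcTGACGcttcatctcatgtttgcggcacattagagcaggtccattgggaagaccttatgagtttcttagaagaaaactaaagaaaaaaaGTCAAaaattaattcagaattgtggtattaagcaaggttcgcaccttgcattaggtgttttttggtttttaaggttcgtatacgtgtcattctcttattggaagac
AT1G69252, 1:26036320-26036619, plus strand: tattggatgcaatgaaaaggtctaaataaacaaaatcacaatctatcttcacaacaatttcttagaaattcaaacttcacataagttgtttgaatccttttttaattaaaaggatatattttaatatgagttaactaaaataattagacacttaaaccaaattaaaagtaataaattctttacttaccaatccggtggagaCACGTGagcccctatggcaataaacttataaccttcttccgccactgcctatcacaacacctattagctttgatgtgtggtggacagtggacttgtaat
AT3G29644, 3:11501317-11501616, minus strand: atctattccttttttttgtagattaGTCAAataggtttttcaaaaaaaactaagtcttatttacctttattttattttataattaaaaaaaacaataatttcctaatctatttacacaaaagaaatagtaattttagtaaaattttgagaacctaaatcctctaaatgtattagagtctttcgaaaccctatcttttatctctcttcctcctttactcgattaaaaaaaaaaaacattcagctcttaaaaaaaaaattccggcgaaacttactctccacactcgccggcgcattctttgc

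The next runs show how short the reading frames of the first 3 are. Each is the longest frame from an ATG to a stop, in capitals, in the spliced TAIR10.1 model. It is shown with 30 bases on either side, but with fewer after the frame in AT2G45023, whose run was cut at 300 bases. The frame has 252 bases in AT2G45023, 180 in AT1G22403 and 147 in AT1G69252, and over all 154 genes the median is 180.
AT2G45023: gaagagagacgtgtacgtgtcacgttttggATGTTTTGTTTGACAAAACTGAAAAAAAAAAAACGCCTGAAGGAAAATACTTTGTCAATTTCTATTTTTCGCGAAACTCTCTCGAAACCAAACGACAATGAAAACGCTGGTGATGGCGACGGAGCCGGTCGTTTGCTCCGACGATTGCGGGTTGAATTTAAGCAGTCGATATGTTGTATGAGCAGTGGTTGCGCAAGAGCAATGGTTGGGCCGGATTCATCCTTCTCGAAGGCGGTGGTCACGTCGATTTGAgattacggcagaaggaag
AT1G22403: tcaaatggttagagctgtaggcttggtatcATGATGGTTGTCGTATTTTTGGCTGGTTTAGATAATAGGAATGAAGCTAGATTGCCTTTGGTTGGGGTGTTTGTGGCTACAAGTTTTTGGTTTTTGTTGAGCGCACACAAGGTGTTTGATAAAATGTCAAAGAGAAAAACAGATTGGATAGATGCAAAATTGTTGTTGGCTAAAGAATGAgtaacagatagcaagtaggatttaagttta
AT1G69252: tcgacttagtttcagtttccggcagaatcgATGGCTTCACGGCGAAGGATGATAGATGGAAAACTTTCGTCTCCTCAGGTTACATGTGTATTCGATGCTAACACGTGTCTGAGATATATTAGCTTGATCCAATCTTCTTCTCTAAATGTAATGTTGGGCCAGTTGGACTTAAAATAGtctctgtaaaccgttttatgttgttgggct

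The noncoding genes were low and spread over all 5 chromosomes. Their median log2 level was 2.76 (interquartile range 1.93 to 3.78), against 3.86 (2.7 to 5) for the 16331 protein-coding genes tested, and the source does not say whether values are per length. The median SD within a group was 0.22 on the log2 scale, against 0.18 for the protein-coding genes. The genes span a median of 1389 bases (204 to 7697), with 54 on chromosome 1, 29 on chromosome 2, 26 on chromosome 3, 17 on chromosome 4 and 28 on chromosome 5. In 148 of them the mean abundance was at least 1 in every group, so that 6 passed the threshold only through part of the groups, and none of the 18 genes described next is among those. A total of 103 overlap another gene of the table and 95 lie antisense to a protein-coding gene, while 51 overlap none.

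The highest mean abundance, 349, was that of AT4G13495, which in the annotation hosts the microRNA genes MIR850A and MIR863A. Its mean log2 value was 8.37 ± 0.10 (SD, n = 3) for wild type, 8.68 ± 0.07 for anac017, 8.38 ± 0.32 for anac082 and 8.31 ± 0.27 for anac090, and no comparison passed the threshold. Next came AT5G24735 (mean abundance 111), AT2G35945 (101), AT1G69252 (93.8), AT1G15405 (84.8) and AT2G23672 (77.4). Divided by the gene's span, the order was AT1G15405 (290 per kb), AT5G24735 (119), AT2G35945 (113) and AT2G23672 (102). The place of AT1G15405 in both orders rests on anac090 replicate 2, where its log2 value was 9.47 against 3.89 to 5.59 in the other 11 libraries.

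In anac017, 18 of the 154 noncoding genes were higher than in wild type and 0 were lower (adjusted p under 0.05, limma, Benjamini-Hochberg over 16817 genes). That is 11.7% of the noncoding genes, where 1.47% of all tested genes were called higher and 0.612% lower. At an unadjusted p under 0.05, 46 were higher and 5 lower, which is 29.9% and 3.25%, against 12% and 13.2% of all tested genes. The median change of the 154 was 0.20 on the log2 scale (interquartile range -0.10 to 0.50), against -0.02 (-0.22 to 0.18) for all tested genes, and 102 of the 154 were above 0. In 51 genes (33.1%) all anac017 libraries lay above all wild type libraries, against 19.0% of all tested genes, and in 11 (7.14%) below, against 22.6%. With the replicate number as a block, 29 were higher and 1 lower (4.11% and 3.05% of all tested genes). Without the 2 libraries that stand apart, 33 were higher and 2 lower, in a fit that called 10.5% of all tested genes higher and 11.2% lower. Leaving out a single library moved the count to 8 without anac017 replicate 1, 9 without anac017 replicate 3, 9 without wild type replicate 2 and 8 without wild type replicate 3, in fits that called 0.268% to 0.303% of all tested genes higher. Without anac090 replicate 3, which enters through the shared spread, it was 30, in a fit that called 8.38%. All 18 stayed above 0 in each of these fits, but they were chosen for a rise. Where all anac017 and wild type libraries stay in, the estimated change is the same, so the kept direction is no separate support.

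**Figure D1:**
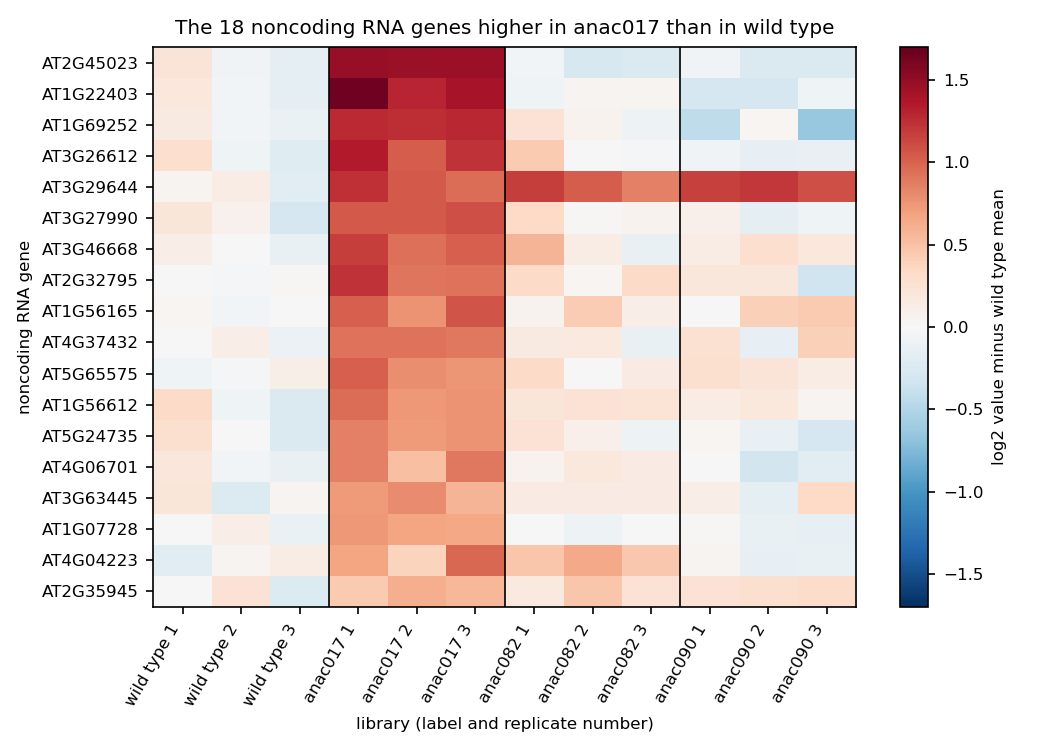
Log2 value minus the wild type mean, by library (columns, with replicate number), for the 18 noncoding RNA genes higher in anac017 (rows, ordered by change; red is higher and blue is lower). The anac017 columns are red in every row, from a mean of 0.55 to one of 1.47. AT3G29644 is the only row also called higher in anac082 and in anac090. The mean change is above 0 in 16 of the 18 rows in anac082 (median 0.14) and in 9 in anac090 (median -0.02).

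The 18 rises ran from 0.55 to 1.47 on the log2 scale, with a median of 0.94, and 8 were at least 2-fold. In 15 of the 18, all anac017 libraries lay above the other 9 libraries. That pattern held for 30 of the 154 noncoding genes (19.5%), against 3.4% of all tested genes. The 18 sit on all 5 chromosomes, with 5 on chromosome 1, 3 on chromosome 2, 5 on chromosome 3, 3 on chromosome 4 and 2 on chromosome 5.

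Of the 51 noncoding genes that overlap no other gene, 8 were higher in anac017 (15.7%, against 1.47% of all tested genes). They were AT2G45023, AT1G22403, AT1G69252, AT3G26612, AT2G32795, AT5G24735, AT4G06701 and AT4G04223. AT2G45023 (2:18570156-18572173, minus strand), whose first bases are shown above, was at 3.04, 2.76 and 2.66 in wild type, at 4.30, 4.29 and 4.27 in anac017, at 2.78, 2.55 and 2.57 in anac082 and at 2.76, 2.58 and 2.57 in anac090. The anac017 libraries nearly coincide and lie clear of the other 9, whose groups overlap. The rise over wild type was 1.47 ± 0.11 (SE), or 2.76-fold (adjusted p = 1.8e-04), and it was 1.65 ± 0.11 over both anac082 and anac090 (adjusted p = 1.2e-04 and 1.3e-04).

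AT1G22403 (1:7908568-7909708, minus strand) was at 2.55, 2.33 and 2.22 in wild type, at 4.02, 3.66 and 3.77 in anac017, at 2.30, 2.42 and 2.42 in anac082 and at 2.08, 2.08 and 2.30 in anac090. Again the anac017 libraries stand alone, and the lowest of them is above the highest of the rest. The rise over wild type was 1.45 ± 0.13, or 2.73-fold (adjusted p = 4.1e-04).

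AT1G69252 (1:26036570-26037659, plus strand) is the most abundant of the genes with a rise of at least 2-fold. It was at 6.32, 6.13 and 6.06 in wild type and at 7.44, 7.42 and 7.45 in anac017, while anac082 was at 6.42, 6.23 and 6.08 and anac090 at 5.74, 6.20 and 5.53. Only the anac017 libraries stand clear of the rest, with wild type and anac082 interleaved and anac090 reaching lowest. The rise over wild type was 1.26 ± 0.15, or 2.40-fold (adjusted p = 0.00341), and the difference from anac090 was 1.61 ± 0.15 (adjusted p = 8.2e-04).

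AT3G26612 (3:9781983-9783412, plus strand) was at 3.54, 3.19 and 3.06 in wild type and at 4.61, 4.29 and 4.49 in anac017, a rise of 1.20 ± 0.15 (adjusted p = 0.0046). Replicate 1 was the highest in each of the 4 groups, and no library outside anac017 reached the lowest one in it. AT2G32795 (2:13909423-13910910, plus strand) was at 3.23, 3.19 and 3.24 in wild type and at 4.45, 4.13 and 4.14 in anac017, a rise of 1.02 (adjusted p = 0.0114) that was no longer called without wild type replicate 2 or 3 or anac017 replicate 1. The other 3 rose by 0.78 (AT5G24735, the most abundant of the 18, adjusted p = 0.0212), 0.75 (AT4G06701, adjusted p = 0.0227) and 0.68 (AT4G04223, adjusted p = 0.0406).

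Of the 95 noncoding genes antisense to a protein-coding gene, 9 were higher in anac017 (9.47%, against 1.47% of all tested genes). In 6 of these the coding partner was itself expressed enough to be tested. In strand-specific libraries a pair can be told apart only where reads are counted by strand, and whether the authors did so was not stated in the sources used here. AT3G46668, antisense to the glycosyltransferase gene UGT76E11, was at 2.89, 2.79 and 2.66 in wild type and at 3.95, 3.72 and 3.79 in anac017, a rise of 1.04 (adjusted p = 0.0127). That call was lost without wild type replicate 2 or 3 or anac017 replicate 1 or 3. UGT76E11 changed by -0.43 ± 0.20 (adjusted p = 0.212). AT4G37432 lies wholly within the span of CYP81F1, a cytochrome P450 of indole glucosinolate metabolism. It was at 3.53, 3.65 and 3.44 in wild type and at 4.46, 4.46 and 4.44 in anac017, a rise of 0.92 (adjusted p = 0.0112), with CYP81F1 at -0.01 ± 0.28 (adjusted p = 0.988). In both genes the anac017 libraries lay above all others, and in neither did the partner pass the threshold.

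AT5G65575 overlaps 260 bases of AT5G65580, and here both were higher. AT5G65575 was at 3.45, 3.49 and 3.62 in wild type and at 4.54, 4.31 and 4.27 in anac017, a rise of 0.85 (adjusted p = 0.00447), and AT5G65580 rose by 0.99 ± 0.17 (adjusted p = 0.0196). It was the only partner past the threshold among the 6. The other 3 pairs were AT1G56612, which rose by 0.82 (adjusted p = 0.0152) with AT1G56610 at 0.04 ± 0.10, AT3G63445, which rose by 0.70 (adjusted p = 0.0419) with the cytokinin oxidase gene CKX6 at -0.18 ± 0.22, and AT2G35945, which rose by 0.55 (adjusted p = 0.0478) with the homeobox gene BLH1 at 0.22 ± 0.13.

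For 3 more, the coding partner was close to unexpressed. AT1G07728 is antisense to the exocyst subunit gene ATEXO70H6 (mean abundance 0.00372), AT1G56165 to ATMYB72, a root regulator of iron uptake, listed at 0, and AT3G27990 to the pectinesterase gene PME30 (0.379). AT1G07728 was at 3.68, 3.79 and 3.57 in wild type, at 4.42, 4.35 and 4.34 in anac017, at 3.68, 3.59 and 3.68 in anac082 and at 3.70, 3.56 and 3.54 in anac090. Its rise of 0.69 ± 0.09 (adjusted p = 0.00418) was smaller than most of the others but rested on closely spaced libraries. AT3G27990 rose by 1.06 (adjusted p = 0.00443) and AT1G56165 by 0.96 (adjusted p = 0.013).

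**Figure D2:**
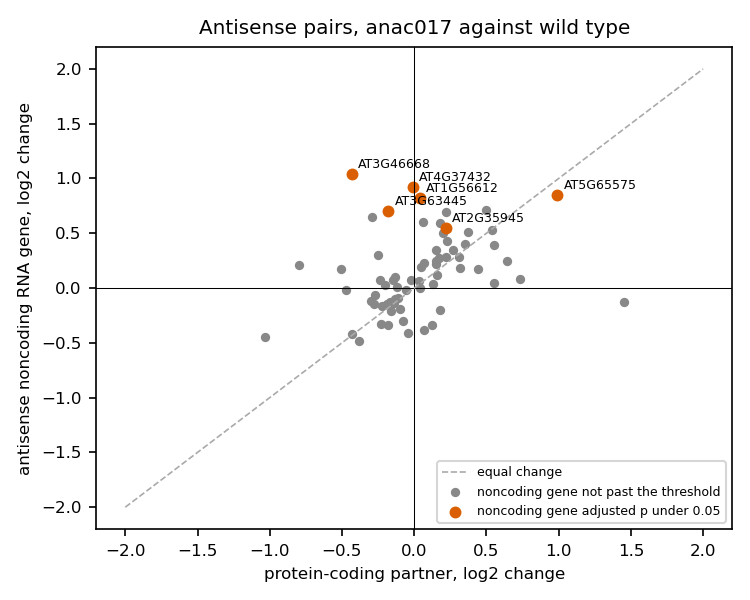
Log2 change in anac017 against wild type of each antisense noncoding RNA gene (vertical) and of its protein-coding partner (horizontal), for the 68 pairs of 67 noncoding genes in which the partner was tested; orange points are the 6 noncoding genes past the threshold. AT5G65575 lies near the dashed line of equal change, with 0.85 against 0.99 for its partner, and the other 5 lie above it, with partners between -0.43 and 0.22.

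Over all 68 pairs, the noncoding gene's median SD across the 12 libraries was 0.26, and so was that of its difference from the partner. In 20 pairs, that of AT5G65575 and AT5G65580 among them, the difference varied less than either gene. No such count is given for pairs of genes that do not overlap, so how unusual 20 is was not tested. AT5G63195, which lies within AT5G63190, kept 1.03 to 1.20 log2 units above it in all 12 libraries. AT3G22121 ranged from 4.70 to 6.62, and its difference from the opposite cell wall protein gene CWLP stayed between 0.13 and 0.72. AT3G21781, within the span of the glucosyltransferase gene UGT71B6, ranged from 2.62 to 4.73 with a difference of -0.54 to 0.14. In such pairs the 2 values may not be separate measurements, and the part of strand counting in this was not tested. The pair FLORE (AT1G69572) and CDF5, in which the noncoding RNA and the factor that delays flowering are known to oscillate in opposite phase, did not move together in this way: FLORE stayed between 3.63 and 3.99, CDF5 between 1.27 and 2.1, and in anac017 they changed by 0.03 (adjusted p = 0.87) and -0.20 ± 0.24 (adjusted p = 0.618).

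The comparisons of anac017 with the other lines share its 3 libraries with the comparison above, so they are given side by side and are no separate evidence. Against anac082, 13 noncoding genes were higher in anac017 and 0 lower (8.44%, where 0.773% of all tested genes were called higher and 0.119% lower). Against anac090, 22 were higher and 0 lower (14.3%, against 1.31% and 0.172%). Of the 18 genes higher than in wild type, 12 were also called against anac082 and 14 against anac090, and their median differences were 0.74 and 0.81. With the replicate block the counts were 20 and 27 (1.19% and 1.90% of all tested genes), and without the 2 libraries that stand apart they were 13 and 15 (0.969% and 1.17%). The count against anac082 fell to 4 without anac017 replicate 1 or 3 or anac082 replicate 2 or 3, and to 5 without anac017 replicate 2, in fits that called 0.172% to 0.232% of all tested genes. The count against anac090 fell to 7, 10 and 11 without anac017 replicate 1, 2 and 3, and to 14 and 12 without anac090 replicate 1 and 3, in fits that called 0.422% to 1.02%. AT2G07042 was at 4.11, 3.96 and 4.09 in anac017 and at 2.74, 2.78 and 2.60 in anac082, a difference of 1.34 ± 0.23 (adjusted p = 0.026). Wild type lay between them at 3.46, 3.48 and 2.89, and the difference of anac017 from it missed the threshold (adjusted p = 0.0907, or 0.045 with the block). The F-test over the 4 groups called 17 noncoding genes (11%, against 1.87% of all tested genes), 29 with the block (6.74% of all tested genes) and 33 without the 2 libraries that stand apart (13.2%). It called 7, 9 and 5 without anac017 replicate 1, 2 and 3 (0.387%, 0.398% and 0.274% of all tested genes). Without wild type replicate 2 it called 9 (0.612%) and without anac090 replicate 2 it called 37 (17%).

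In anac082, 1 noncoding gene was higher than in wild type, AT3G29644, and 0 were lower, where 0.0297% and 0.0178% of all tested genes were called. Without the 2 libraries that stand apart, the fit called 2.48% of all tested genes higher and 1.8% lower. The shares in anac082 thus depend on the libraries used, and the noncoding count in that fit is not given here. At an unadjusted p under 0.05 in the main fit, 6 were higher and 5 lower (3.71% and 3.46% of all tested genes). The median change of the 154 was 0.04 (interquartile range -0.11 to 0.19). The next smallest p-values were those of AT4G04223 (0.53 ± 0.14, adjusted p = 0.656), AT1G26558 (0.56 ± 0.17, adjusted p = 0.664), AT1G79075 (0.87 ± 0.31, adjusted p = 0.664) and AT2G45245 (-0.37 ± 0.14, adjusted p = 0.664), none past the threshold.

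AT3G29644 (3:11499199-11501366, minus strand) was higher in all 3 lines. It was at 2.18, 2.26 and 1.94 in wild type, at 3.37, 3.17 and 3.08 in anac017, at 3.31, 3.16 and 2.98 in anac082 and at 3.29, 3.33 and 3.22 in anac090. The 9 libraries of the 3 lines lie close together and all above the 3 wild type libraries, which the 3 comparisons share. The differences from wild type were 1.08 (adjusted p = 0.00195), 1.02 (adjusted p = 0.0197) and 1.15 (adjusted p = 0.00478). The call in anac082 was lost without any 1 of the wild type libraries, anac082 replicate 1 or 2, anac017 replicate 2 or anac090 replicate 1. It overlaps 151 bases of AT3G29642, which the deposited table describes as a transposable element gene and RefSeq as a pseudogene, and whose mean abundance was 0.134.

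In anac090, 1 noncoding gene was higher than in wild type, again AT3G29644, and 1 was lower, AT2G45245, where 3.66% of all tested genes were called higher and 3.65% lower. These are 0.649% of the noncoding genes in each direction. The shares of all tested genes were unstable. Without wild type replicate 1, 2 or 3 they were 0.0595%, 0.0535% and 0.0773% higher, and 0.0119%, 0.0119% and 0.0238% lower. With only the groups compared they were 0.0119% and 0.00595%. No deficit of the noncoding genes is therefore drawn from these shares. The median change was -0.08 (interquartile range -0.22 to 0.10), against -0.03 (-0.26 to 0.19) for all tested genes. With the replicate block 5 were higher and 7 lower (8.19% and 10.1% of all tested genes), and without anac090 replicate 2 there were 10 and 9 (13.8% and 16%). Without the 2 libraries that stand apart, 1 was higher and 0 lower (2.88% and 2.38% of all tested genes). Between anac082 and anac090 0 noncoding genes were called by limma, where 2 of all tested genes (0.0119%) were higher in anac082. At an unadjusted p under 0.05, 12 were higher and 4 lower in anac082, against 6.11% and 5.27% of all tested genes.

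AT2G45245 (2:18659235-18661294, minus strand) was at 2.18, 2.19 and 2.19 in wild type and at 1.66, 1.83 and 1.47 in anac090, with anac082 between them at 1.81, 1.68 and 1.95. Its fall of 0.53 on the log2 scale in anac090 (SE 0.14, adjusted p = 0.0464) was lost when any library other than anac090 replicate 2 was left out. ASCO (AT1G67105, 1:25057479-25058264, plus strand) is a noncoding RNA that binds splicing factors and shifts alternative splicing. It was at 2.27, 2.23 and 2.04 in wild type, at 2.39, 1.52 and 1.91 in anac017, at 1.82, 1.72 and 1.30 in anac082 and at 1.39, 1.61 and 1.09 in anac090. All anac090 and anac082 libraries lay below all wild type libraries, and the difference in anac090 of -0.82 ± 0.23 missed the threshold (adjusted p = 0.0531) and passed it with the replicate block (0.03).

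**Figure D3:**
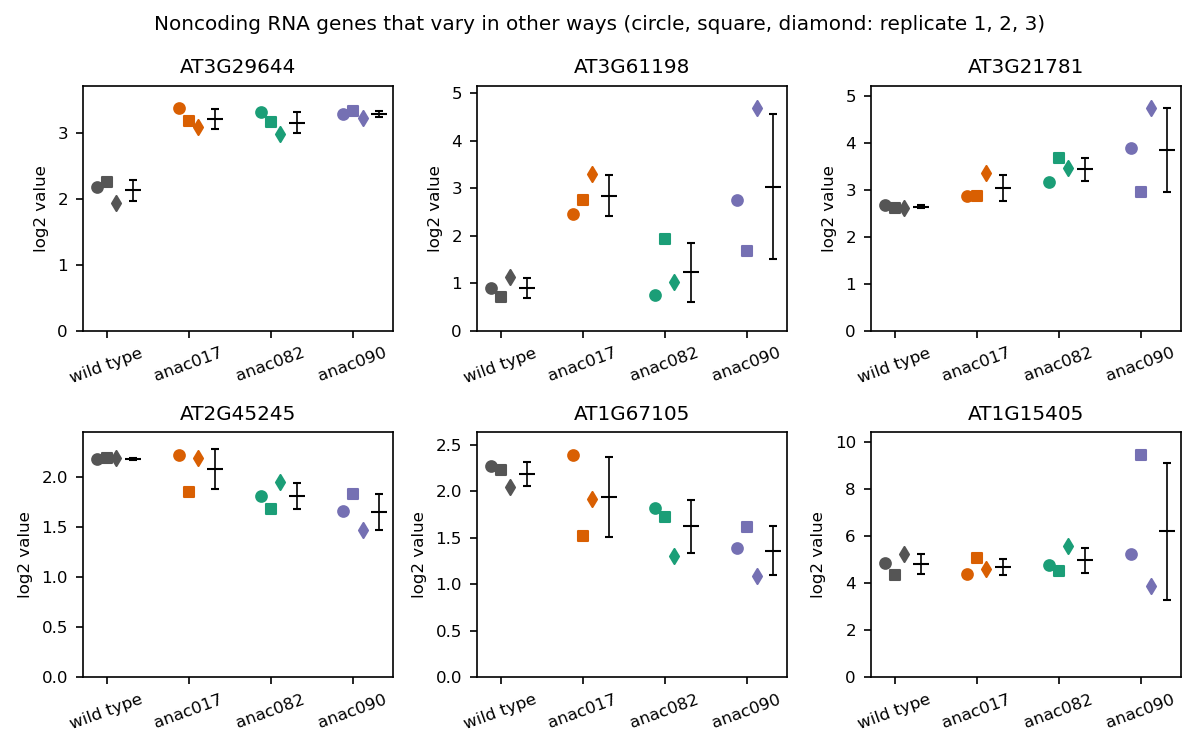
Log2 value in each library of 6 noncoding RNA genes, by group, with the replicate number as the marker shape and the group mean ± SD (n = 3) as the bar beside the points. AT3G29644 is higher in all 3 lines than in wild type, AT2G45245 and ASCO (AT1G67105) reach lowest in anac090, AT3G61198 and AT3G21781 reach highest in anac090 replicate 3, and AT1G15405 in anac090 replicate 2.

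The largest change of any noncoding gene was not called, and it belongs to a gene, AT3G61198, whose mean abundance in wild type was under 1. That gene is among the 6 that passed the threshold only through part of the groups, those where it is high. AT3G61198 (3:22655884-22656599, minus strand) was at 0.89, 0.71 and 1.14 in wild type, at 2.45, 2.76 and 3.30 in anac017, at 0.75, 1.94 and 1.02 in anac082 and at 2.74, 1.67 and 4.68 in anac090. All anac017 and anac090 libraries lay above all wild type libraries, with the widest spread in anac090. The changes were 2.11 ± 0.61 in anac090 (adjusted p = 0.0576, or 0.038 with the block) and 1.92 ± 0.61 in anac017 (adjusted p = 0.0991). AT3G21781, the antisense gene of UGT71B6 above, changed by 1.21 ± 0.35 in anac090 (adjusted p = 0.0567, or 0.0365 with the block), with 2.68, 2.62 and 2.62 in wild type and 3.88, 2.95 and 4.73 in anac090. Its partner UGT71B6, whose product glucosylates abscisic acid, rose by 1.09 ± 0.29 (adjusted p = 0.0466), so that both reach highest in anac090 replicate 3, the library farthest out on the first principal component.

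**Figure D4:**
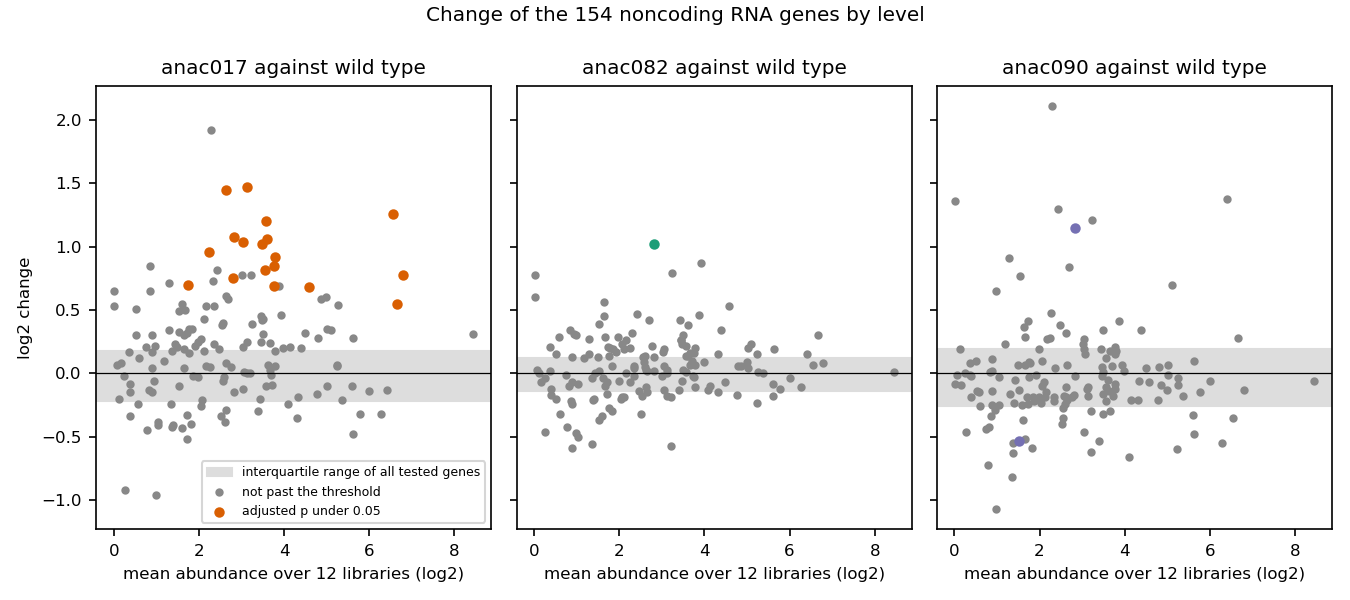
Log2 change against wild type (vertical) by mean abundance over the 12 libraries (horizontal, log2) of the 154 noncoding RNA genes in each line; coloured points passed an adjusted p of 0.05 and the grey band is the interquartile range of all tested genes. The coloured points number 18 in anac017, all above 0, 1 in anac082 and 2 in anac090, of which 1 is above 0.

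The 18 genes higher in anac017 had a higher median level (mean abundance 11.85) than the other 136 (5.08), and a higher level makes a change easier to call. Among genes with a mean abundance of at least 5, 16 of 85 noncoding genes (18.8%) were higher, against 1.68% of the 12943 tested genes at that level. Of the 18, 66.7% are spliced in the TAIR10.1 model, against 61.8% of the other 136. The median spliced length was 1166.5 against 1159 bases, the median longest reading frame 186 against 177 bases and the median GC content 40.6% against 40.05%. An exon junction more than 50 bases after the end of that frame, a feature known to mark messenger RNAs for nonsense-mediated decay, was found in 22.2% of the 18 and in 14.7% of the others. A protein-coding gene lies on the other strand in 50% of the 18 and 63.2% of the others. None of these differences was tested.

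The motifs marked in the promoters above were counted in all promoters of tested genes. In the window of 300 bases, on either strand, the W-box core TTGAC was found in 55.6% of the 18, in 49.4% of all 154 and in 49.7% of 16682 promoters of tested genes. The as-1 core TGACG, which can share the letters TGAC with a W-box core, was found in 27.8%, 28.6% and 27.0%, and the G-box CACGTG in 11.1%, 9.7% and 9.7%. The evening element AAATATCT of clock-regulated genes was found in 0 of the 18, in 3.9% of the 154 and in 5.8% of all, and the phosphate starvation element GNATATNC in 5.6%, 8.4% and 5.4%. The mitochondrial dysfunction motif, to which ANAC017 binds, was found in 0 of the 154 and in 0.9% of all. These are matches of letters in a fixed window and draw nothing about which factor binds.

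Noncoding RNAs of known function that the table describes in other words were read from fixed lists. Of the precursors of trans-acting small interfering RNAs (tasiRNAs), 5 of 8 were tested and 0 passed in any comparison. TAS1B was at 2.49, 2.63 and 3.08 in wild type and at 2.25, 2.38 and 2.32 in anac017, and the changes of the 5 in anac017 ran from -0.42 to -0.01. None of the 10 factors that make tasiRNAs passed in any comparison, with changes between -0.22 and 0.23 in anac017. Of 5 tested tasiRNA target genes, 1 was higher in anac017, where 1.47% of all tested genes were called higher. It was HTT2, a target of the TAS1 tasiRNAs linked to heat tolerance. HTT2 was at 3.65, 3.65 and 3.52 in wild type and at 4.67, 4.54 and 4.84 in anac017, a rise of 1.08 ± 0.10 (adjusted p = 5.2e-04). Its libraries did not overlap between the groups, as held in that direction for 19.0% of all tested genes. In anac090 HTT2 changed by 0.36 ± 0.10 (adjusted p = 0.0508) and the auxin response factor gene ARF3 by -0.50 ± 0.23 (adjusted p = 0.165), and both passed with the replicate block (0.0346 and 0.0423).

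The phosphate decoy AT4 (AT5G03545), which binds miR399, was at 2.25, 2.47 and 2.41 in wild type and at 1.6, 0.47 and 1.69 in anac090, and it passed in no comparison. Of 7 tested phosphate starvation genes 0 passed in any comparison without the replicate block. With it 1 passed, the galactolipid synthase gene MGD3, which changed by -0.66 ± 0.22 in anac090 (adjusted p = 0.0755, or 0.0364 with the block). APOLO, a noncoding RNA of auxin responses, was higher in anac090, at 4.83, 4.41 and 4.39 against 3.62, 4.06 and 3.64 in wild type. The rise was 0.77 ± 0.15 (adjusted p = 0.0294), where 3.66% of all tested genes were called higher, a share that was unstable as given above. Its groups did not overlap, as held in that direction for 2253 of the 16817 tested genes. GUT15 was near its wild type level of 6.81 ± 0.26 in all lines, between 6.59 and 6.66.

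Of 12 genes for the decay of noncoding transcripts, 2 were higher in anac017 and 0 were lower, where 1.47% and 0.612% of all tested genes were called, and 0 passed in anac082 or anac090 against wild type without the replicate block. UPF1, the helicase of nonsense-mediated decay, rose by 0.44 ± 0.07 (adjusted p = 0.0196), and UPF3, its cofactor, by 0.50 ± 0.09 (adjusted p = 0.0277). UPF2 changed by 0.04 ± 0.10 (adjusted p = 0.807). XRN2, a nuclear exonuclease, changed by 0.30 ± 0.11 in anac090 (adjusted p = 0.106, or 0.0428 with the block), and the other exosome and XRN genes of the list passed in no comparison with wild type in either fit. The median change over the 12 genes in anac017 was 0.05.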

How the data were processed

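RNA was measured in leaves in 12 libraries, 3 in each of 4 groups, with poly(A) RNA made into strand-specific libraries, per the labels' protocols. Per the submitters' processing notes, the tools were CASAVA 1.8.2, TopHat and Cufflinks and the build was TAIR10, with no role given. The authors deposited 1 table of log2 values for 33726 entries, of which 529 (1.57%) have no gene identifier and were left out. The values look like log2(abundance + 1): none is below 0, and at a given rank the 12 libraries lie within 0.08 of each other, so a rise of most genes together would not be visible. The scaling was not stated in the sources used here, the depth is unknown, and an exact 0 may be a failed estimate.

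Genes with a mean abundance of at least 1 (16817) were fitted in 1 model of 4 groups with limma 3.58.1 in R 4.3.3 (eBayes with a mean-variance trend), with Benjamini-Hochberg adjustment over all of them and a threshold of 0.05. The scale has a pseudocount of 1 built in, so fold changes understate the change of low genes. Means are given ± SD and changes ± SE. Replicate numbers come from the titles. Deviations of same-numbered libraries from their group means correlated above 0.1 in 17 of 18 pairs of libraries (median 0.33, against -0.20 for other numbers), in every pair of groups but anac082 and anac090, where 1 correlation was -0.31. Deviations cancel within a group, so the negative median for other numbers follows from the positive one and is no separate evidence. The numbers were therefore taken to pair the libraries, outside that comparison, by this check and not by a label. The main fit, behind all counts and p-values not marked otherwise, has no replicate term, and the fits with the replicate block add it. Strands, biotypes and sequences come from RefSeq's TAIR10.1 by locus tag (all 154 found), and coordinates from the deposited table, counted from 1. The fit was tested on simulated data with independent noise in each library. The simulation held no pairing by replicate number and no library that stands apart, so it does not cover these features of the data.

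Named genes were those with the largest changes, smallest p-values, highest levels or positions nearest the threshold, and the members of the fixed lists. AT2G07042, AT3G61198 in anac017, the tracking antisense pairs and FLORE were chosen after their values were seen. The noncoding genes and the gene lists were chosen with earlier results of these data known.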

Additional observations from a re-analysis of the deposited data

How the results depend on the processing

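The 18 genes higher in anac017 than in wild type stayed above 0 in every fit that held them. They were chosen for a rise, and many of these fits leave the estimate unchanged, so this is no separate support. Their number was 13 with no filter on low values (0.413% of all tested genes called higher) and 17 without the mean-variance trend (1.39%). It was 18 with a pseudocount of 0.1 (1.56%) and 16 when only genes with a mean abundance of at least 5 were fitted (1.95%). The replicate block moved it further, to 29 higher and 1 lower (4.11% and 3.05%). Fitting only the groups compared gave 30 and 4 (10.3% and 11.2%), and weights per library gave 39 and 4 (13.0% and 14.2%). Leaving out the 2 libraries that stand apart gave 33 and 2 (10.5% and 11.2%). These larger counts thus came from fits that called more of all tested genes than the main fit (1.47% higher and 0.612% lower). At an adjusted p under 0.01 the number higher was 8. It was 8 among the 51 genes without overlap (15.7% of these), an alternative added after seeing the data, as was the count at a mean abundance of at least 5 in the same fit. The estimate of weights per library stopped before its tolerance was reached. With these weights the counts higher and lower against wild type were 2 and 0 in anac082 (2.52% and 1.5%) and 22 and 27 in anac090 (21.1% and 23.8%). They were 31 and 2 in anac017 against anac082 (3.6% and 1.99%), and 52 and 5 against anac090 (11.9% and 11.1%). Between anac082 and anac090 they were 21 and 9 (11.8% and 10.8%), and the F-test called 85, in a fit that called 56% of all tested genes. With the block the counts were 5 and 7 in anac090 (8.19% and 10.1%), 20 in anac017 against anac082 (1.19%), 27 against anac090 (1.9%) and 29 by the F-test (6.74%). No other call of a count changed by over 1.5 times with the block. With no filter they were 0 higher in anac082 (0.0151%), 0 lower in anac090 (0.012%), 8 in anac017 against anac082 (0.316%), 10 against anac090 (0.485%) and 8 by the F-test (0.476%). With only the groups compared they were 0 higher in anac082 (0.0238%), 0 and 0 in anac090 (0.0119% and 0.00595%), and 4 in anac017 against anac090 (0.0714%). At an adjusted p under 0.01 they were 0 higher in anac082, 0 lower in anac090, 5 in anac017 against anac082, 9 against anac090 and 7 by the F-test. The shares of all tested genes at that threshold are not given here, so these counts are not set against them. In anac090, 2 were higher with a pseudocount of 0.1 (3.95%). None was lower there with the stricter filter (4.37%) or without the 2 libraries that stand apart (2.38%). Without those 2 libraries the F-test called 33 (13.2%). Leaving out 1 library at a time gave 8 to 30 higher (0.268% to 8.38%) and 0 to 1 lower (0.0178% to 9.2%) in anac017, and 0 to 1 higher in anac082 (0.0178% to 0.0297%). In anac090 it gave 1 to 10 higher (0.0535% to 13.8%) and 0 to 9 lower (0.0119% to 16%). For anac017 it gave 4 to 15 higher against anac082 (0.172% to 1.25%), and 7 to 21 higher (0.422% to 1.29%) and 0 to 1 lower (0.0357% to 0.297%) against anac090. The F-test called 5 to 37 (0.274% to 17%). The cause of these moves was not tested, apart from fewer libraries or genes where an alternative leaves them out. Over 28 changes of named genes (21 past the threshold), 583 refits kept the call in 532, lost it in 41, gained it in 10 and reversed none. Many refits cannot alter the direction of a change, so the lack of reversals is no separate support. Depth is unknown, so what it limits cannot be stated.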

Other observations

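Some genes were looked up after their values had been seen, and are given as values with no test. ERF1-1, a translation release factor whose transcript is a known target of nonsense-mediated decay in Arabidopsis, was at 4.79, 5.08 and 5.01 in wild type and at 6.13, 6.23 and 6.31 in the libraries labelled anac017. All anac082 and anac090 libraries lay between 5 and 5.24, so the anac017 libraries stand apart. The related release factor genes ERF1-2 and ERF1-3 had anac017 means of 5.29 and 4.11, against 5.14 and 4.19 in wild type. Whether these values bear on the noncoding genes was not tested.

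AT1G15405 (1:5297875-5298166, minus strand, 292 bases) was at 5.25, 9.47 and 3.89 in anac090, so that 1 library was far above the other 11, and no comparison of it passed the threshold. Near the threshold of the level, AT5G24206 was listed at 0 in wild type replicate 3 and at 2.74 in anac090 replicate 3, and AT4G20362 was listed at 0 in wild type replicate 2 and anac090 replicate 3. AT3G52748 was at 1.35, 2.11 and 2.06 in wild type and at 2.91, 2.34 and 4.18 in anac090, a difference of 1.30 ± 0.42 that missed the threshold (adjusted p = 0.0719) and passed it with the replicate block (0.0347).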
